A study of Arabidopsis thaliana with 16 samples.

Results

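A total of 106 transcripts, read as probe sets on Affymetrix ATH1 arrays, had fallen by 30 min after dawn in both genotypes of an Arabidopsis thaliana seedling series. They were 106 of 22746 probe sets, or 0.466%. A probe set was a member if its mean log2 signal at 30 min lay at least 0.8 below its mean 15 min before dawn in the lhy-21; cca1-11 double mutant and also in wild type. Its mean linear signal before dawn also had to reach 40 in both genotypes. The members were thus chosen by the measured falls, which are described here without a test, as is every difference from an array taken before dawn or at 30 min. The arrays at 15 and 60 min took no part in the choice, and the tests below use only contrasts between them.

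The study measured total RNA of whole seedlings, 9 days old, on 16 arrays with 1 array per sample. The mutant carried T-DNA knockouts of 2 related clock genes (lhy-21; cca1-11, written lhy cca1 here) in the Wassilewskija (WS) background, and was compared with WS itself. Sampling times relative to lights-on were -15, 15, 30 and 60 min, and each genotype had 2 arrays per time. All seedlings had 4 days in the cold and dark, then grew at 22 °C on medium with 3% sucrose with a day of 18 h and a night of 6 h. No sample was kept in darkness past dawn, so light and time of day cannot be told apart. Whether replicates were separate cultures is not stated, and a p-value here then reflects only how far the samples of a group differ, which may be technical.

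LHY and CCA1 are MYB-type transcription factors that peak around dawn and hold down evening-phased clock genes. During the night a seedling lives on stored carbon. Genes induced by darkness and low sugar are then high, many of them under the energy-sensing kinase SnRK1, and light and sugar hold them down by day. Regulators such as F-box proteins, RING ubiquitin ligases and transcription factors are often encoded by short-lived mRNAs, whose level can change within minutes.

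The shoot marker RCA (rubisco activase) ranged from 5613 to 7825 in signal and the root marker PYK10 (a root beta-glucosidase) from 3242 to 4494, both above the 40th percentile of the array on 16 of 16 arrays. The root hair marker EXPA7 was above it on 2 of 16 arrays, with signals of 1.39 to 40.4. The other markers sought had no named probe set, nor had LHY and CCA1, so the genotype labels were not checked on the mutated genes. Log2 signal of the 25S rRNA control probe sets was 8.01 to 9.15 on the 4 replicate 2 arrays of lhy cca1 and 5.85 to 7.98 on the other arrays. Since whole seedlings were extracted, fewer cells of a type and less RNA per cell cannot be told apart.

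The annotation gave 1 gene for 57 members, all protein-coding, and none for the other 49, which appear here by probe set identifier. Only 4 of the 57 carried a symbol in place of a locus name: EXO, AKINBETA1, bHLH121 and GT2. Roles of the others are general knowledge of Arabidopsis, stated as background. Just inside the fall threshold were 255037_at, 246932_at and AT3G52480, with log2 differences of -0.8054, -0.8081 and -0.8120 in their weaker genotype. Just outside it were AT1G27290 (short of it by less than the last digit of these values), BRH1 (-0.7914) and AT5G16110 (-0.7907). Just inside the signal floor were 251374_at, 251373_at and 259751_at, with means before dawn of 41.5, 42.7 and 42.8 in WS. Just outside it were 263953_at (39.6 in WS), AT2G37950 (37.9 in WS) and AT1G77640 (37.3 in lhy cca1). Given the floor, 154 probe sets met the fall threshold in lhy cca1 and 182 in WS.

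The signal floor kept the members, by their mean before dawn, above the array medians. Their median signal in lhy cca1 was 191 before dawn, 129 at 15 min, 67.7 at 30 min and 59.2 at 60 min. In WS the medians were 135, 97.2, 52.7 and 50.4 at the same times. The array medians were 33.6 to 38.3. In log2 units relative to before dawn, the median member of lhy cca1 stood at -0.48 at 15 min, -1.31 at 30 min and -1.60 at 60 min. The WS medians were -0.40, -1.28 and -1.49. The share of the 30 min fall already present at 15 min had a median of 34.0% in lhy cca1 and 33.8% in WS.

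**Figure D1:**
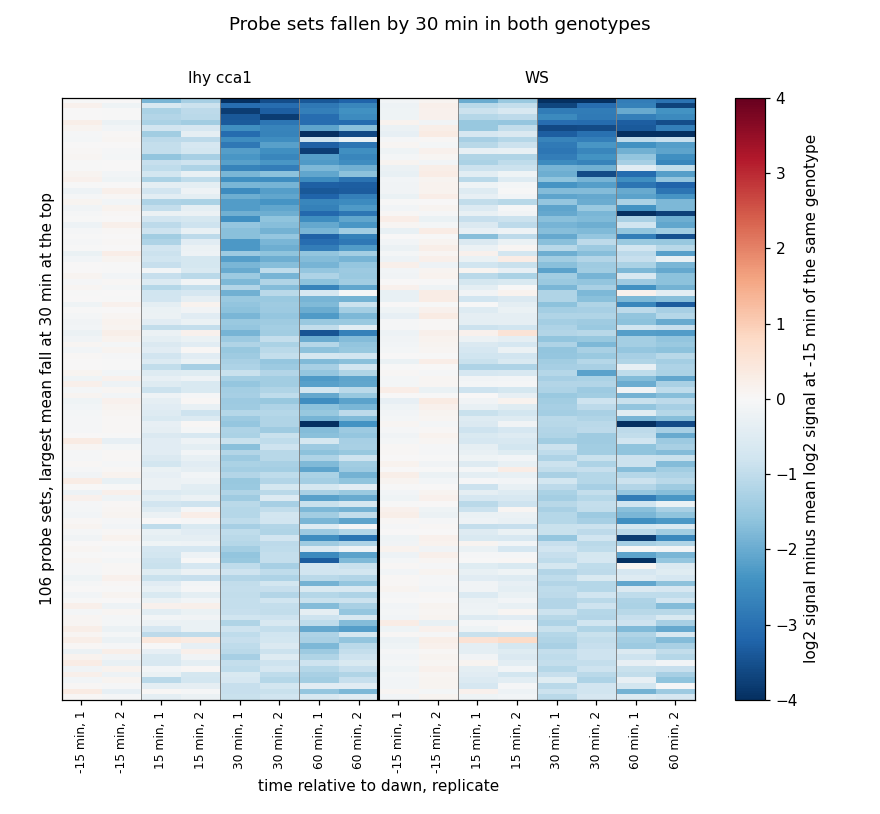
Each line is 1 of the 106 members, ordered by mean fall at 30 min with the largest at the top, and each column is 1 array of lhy cca1 (left) or WS (right). Colour is log2 signal minus the genotype's mean before dawn: the median member goes to -0.48, -1.31 and -1.60 in lhy cca1 and to -0.40, -1.28 and -1.49 in WS at 15, 30 and 60 min.

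Part of the fall was visible at 15 min. The differences at 15 min are taken from the same arrays before dawn that chose the members, which favours low values in members. The counts here are thus no independent support for an early fall. In lhy cca1 25 members, and in WS 22, already lay at least 0.8 below their level before dawn, against 0.284% and 0.379% of the 10558 probe sets with a signal of 40 or more before dawn. In both genotypes 17 probe sets did so (0.161%), and all 17 were members. Among them were AT4G10910, AT2G20670, AT5G61590, AT3G06070, AT5G25280, AT3G26510, AT3G23880, AT1G49200, AT5G11070 and AT2G27830. Others had moved little at 15 min. GT2 had a mean of 117 at 15 min in lhy cca1, against 104 before dawn, and a log2 difference of -0.25 in WS. AT5G44680 had a mean of 662 at 15 min in lhy cca1, against 669 before dawn, and a log2 difference of -0.24 in WS.

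At 60 min all 106 members lay below their level before dawn in both genotypes. The arrays before dawn took part in the choice of members, which favours this. The share of all probe sets was not counted for it, nor for a return to within 0.5 of that level. In lhy cca1 87 members, and in WS 78, lay at least 1 log2 unit below it, against 2.60% and 2.46% of probe sets with a signal of 40 or more. In both genotypes 74 did so (1.65% of those probe sets), and 22 lay at least 2 units below it in both (0.256%), or 19 with members below the 40th percentile held at that percentile. Return to within 0.5 of the level before dawn was seen in 4 members in lhy cca1 and 5 in WS. AT1G69160 was among them in both genotypes, with means of 78.5 at 60 min in lhy cca1, against 108 before dawn, and 75.4 at 60 min in WS, against 96.5 before dawn.

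Between 30 and 60 min the members parted. In 17 the signal at 60 min was at least 0.5 log2 units below that at 30 min in both genotypes, and in 7 it was at least 0.5 above. The same differences were seen in 2.19% and 1.38% of probe sets with a signal of 40 or more. In 50 members both genotypes stayed within 0.5, and in 32 the genotypes fell into different classes. The 17 that went on downward include AT3G15450, AT1G49200, AT3G15630, AT5G44680, AKINBETA1, AT1G67910 and AT5G59080. AT4G04630 and AT3G59080 are counted among the 17, but were below the 40th percentile (19.1 to 22.0) on all 60 min arrays. Held at that percentile, an alternative chosen after seeing the data, they leave the class, and 15 remain. The 7 that turned upward include AT1G23390 and AT3G26510. AT4G10910 is counted among those 7, but it lay below the percentile on all arrays at 30 and 60 min, where signals have no reliable order, and 6 remain without it. At 60 min 7 members were below it on both arrays in lhy cca1 and 10 in WS.

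**Figure D2:**
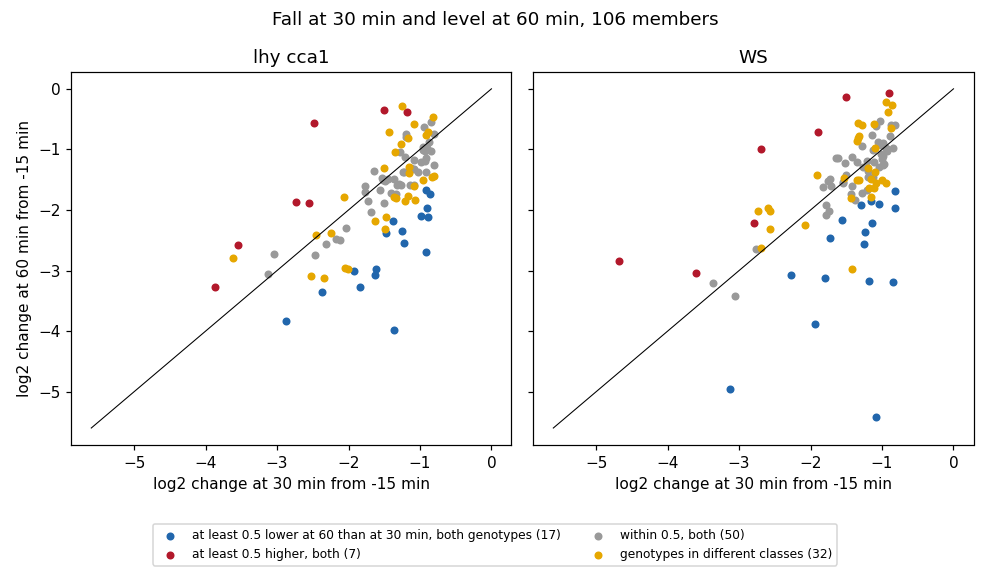
Each point is 1 of the 106 members in lhy cca1 (left) or WS (right), with its log2 change from before dawn at 30 min on the horizontal axis and at 60 min on the vertical axis. On the line the levels at 30 and 60 min are equal; the 17 blue members lie at least 0.5 below it in both genotypes, the 7 red ones at least 0.5 above it, and no point reaches 0 on the vertical axis.

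On the arrays that the choice did not use, most members were lower at 60 than at 15 min. That span takes in 15 to 30 min, and only part of the fall that chose the members was present at 15 min. From 30 to 60 min the median log2 change of the members was -0.24 in lhy cca1 and -0.05 in WS. The contrast thus does not separate a further decline from a low level kept since 30 min. Among all 14878 probe sets tested by limma, 77 members were lower at 60 than at 15 min in lhy cca1 and none was higher, which is 72.6% of members against a background of 4.11% lower and 3.18% higher. In WS 70 members were lower and none was higher, or 66.0% against 4.21% lower and 2.71% higher. The median log2 change of the members was -1.25 in lhy cca1, where it was -0.03 for all probe sets tested. In WS it was -0.98, and again -0.03 for all tested. In both genotypes 66 members were lower, 11 in lhy cca1 alone, 4 in WS alone and 25 in neither. The count of 77 in lhy cca1 was 45 without its 4 replicate 2 arrays.

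**Figure D3:**
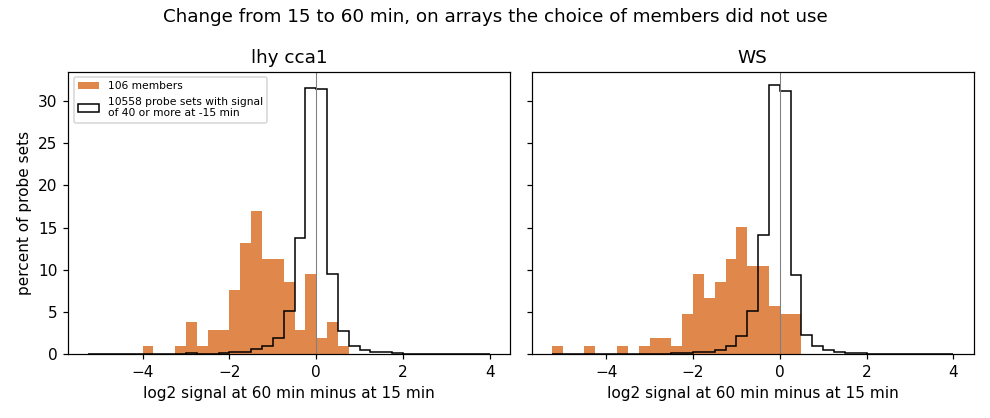
The horizontal axis is log2 signal at 60 min minus that at 15 min and the vertical axis the percent of probe sets, in lhy cca1 (left) and WS (right). The 106 members (filled) centre on -1.25 in lhy cca1 and -0.98 in WS, and the 10558 probe sets with a signal of 40 or more before dawn (outline) on -0.03 in both.

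Genes tied to low sugar and darkness formed the best-known group among the members. AT3G15450 encodes a protein of the aluminium-induced family and is a widely used marker of sugar starvation. In lhy cca1 its signal was 1259.9 and 1646 before dawn, 855 and 1243 at 15 min, 251 and 310.2 at 30 min, then 137 and 143 at 60 min. In WS it was 391 and 466, 299 and 419.7, 128 and 128, then 106 and 56.3. The 60 min arrays lay below every earlier array of the same genotype, at 10.3-fold below the level before dawn in lhy cca1 and 5.53-fold in WS. Against 15 min, AT3G15450 at 60 min was lower by limma in lhy cca1 (log2 -2.88 ± 0.250 SE, adjusted p = 2.44e-06) and in WS (-2.20 ± 0.250, adjusted p = 2.63e-05).

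AT2G20670, a DUF506 family gene that also rises with sugar starvation, fell further by 30 min. The lhy cca1 arrays read 576 and 553 before dawn, 251 and 267 at 15 min, 53.5 and 40.2 at 30 min, then 67.6 and 97.8 at 60 min. The WS arrays read 224 and 279, 114 and 122, 42.5 and 35.2, then 37.5 and 43.1. Levels before dawn, at 15 min and at 30 min did not overlap within either genotype. At 30 min AT2G20670 was 12.2-fold below its level before dawn in lhy cca1 and 6.46-fold below it in WS. Its 60 min level was lower than at 15 min by limma in lhy cca1 (log2 -1.67 ± 0.191, adjusted p = 2.95e-05) and in WS (-1.55 ± 0.191, adjusted p = 5.34e-05).

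AKINBETA1 encodes a beta subunit of SnRK1, and its transcript is known to be high in darkness. It read 298 and 311 before dawn in lhy cca1, then 182 and 263, 103 and 158, and 52.1 and 69.2 at 15, 30 and 60 min. In WS it read 177 and 237, 199 and 199.9, 107 and 126, and 47.6 and 57.9. WS arrays at 15 min thus lay within the range before dawn, and in WS the fall came later than in AT2G20670. In lhy cca1 both arrays at 15 min already lay below both arrays before dawn. AKINBETA1 was lower at 60 than at 15 min by limma in lhy cca1 (log2 -1.87 ± 0.222, adjusted p = 4.04e-05) and in WS (-1.93 ± 0.222, adjusted p = 2.96e-05). AT1G74940 belongs to the DUF581 zinc-finger family, whose proteins bind SnRK1. Its means in lhy cca1 were 104, 83.1, 50.5 and 69.8 over the 4 times, and in WS 78.2, 53.2, 34.3 and 32.0, and its 60 min level passed the test against 15 min in neither genotype (adjusted p = 0.651 in lhy cca1 and 0.0944 in WS).

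Of 30 genes listed for sugar starvation and darkness, 6 had a named probe set and were tested, and 3 of them are members: AT3G15450, AT2G20670 and AKINBETA1. The list was written with earlier results of these data known. All 3 were lower at 60 than at 15 min in both genotypes, and none of the other list members was lower or higher. The median log2 change over the 6 was -1.14 in lhy cca1 and -1.13 in WS. Since 3 of the 6 are members, chosen for a fall, this median does not describe the list apart from them. The other tested genes of the list include IVD, of leucine breakdown, with means of 157, 139.7, 152 and 154 in lhy cca1 over the 4 times and of 87.6, 75.7, 85.2 and 79.2 in WS. For IVD the 60 min change from 15 min was 0.08 ± 0.215 in lhy cca1 and 0.07 ± 0.215 in WS. MCCA, of the same pathway, had changes of -0.61 ± 0.255 in lhy cca1 and -0.70 ± 0.255 in WS, which did not pass (adjusted p = 0.190 and 0.126). Those of ATL8 were -0.28 ± 0.341 in lhy cca1 and -0.50 ± 0.341 in WS, which did not pass by limma (adjusted p = 0.737 and 0.490).

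Ubiquitin ligase genes were a second group. Their share was not counted among the members or among all tested genes, nor was that of the role groups below. AT1G23390 encodes a kelch-repeat F-box protein that targets chalcone synthase, the entry enzyme of flavonoid synthesis, for breakdown. Its lhy cca1 arrays read 925 and 906 before dawn, 377 and 447 at 15 min, 65.7 and 92.6 at 30 min, then 137 and 170.4 at 60 min. WS arrays read 368 and 459, 228 and 264, 59.4 and 59.6, then 101 and 78.0. It was lowest at 30 min, 11.7-fold below the level before dawn in lhy cca1 and 6.91-fold in WS, and the 60 min arrays lay above the 30 min arrays in each genotype. The AT1G23390 level at 60 min was still lower than at 15 min by limma in lhy cca1 (log2 -1.43 ± 0.185, adjusted p = 9.24e-05) and in WS (-1.47 ± 0.185, adjusted p = 6.56e-05).

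AT1G49200, a RING finger gene, had no such turn. It read 186 and 193, 71.6 and 91.1, 59.5 and 65.1, then 20.3 and 28.8 in lhy cca1 over the 4 times. The WS arrays gave 292 and 284, 89.4 and 139, 69.3 and 98.8, then 42.1 and 25.8. The 60 min arrays lay below all others in either genotype, and limma called them lower than 15 min in lhy cca1 (log2 -1.74 ± 0.256, adjusted p = 2.90e-04) and in WS (-1.76 ± 0.256, adjusted p = 2.58e-04). AT3G23880, an F-box gene, had means of 218, 90.7, 44.0 and 37.0 in lhy cca1 and 163, 78.3, 48.7 and 57.2 in WS. Its 60 min level was lower than at 15 min in lhy cca1 (log2 -1.30 ± 0.189, adjusted p = 2.70e-04). In WS AT3G23880 did not pass the test (-0.47 ± 0.189, adjusted p = 0.168), but the interaction of genotype and time did not either (adjusted p = 1.00).

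Further genes of this kind had smaller falls. The F-box gene AT3G07870 averaged 203 before dawn and 61.6 at 60 min in lhy cca1, and 209 and 84.0 in WS. AT4G26400, a RING gene, averaged 291 and 98.0 at those times in lhy cca1 and 285 and 94.1 in WS, and AT4G17245, also a RING gene, 216 and 49.2 in lhy cca1 and 159 and 52.0 in WS. AT4G26400 and AT4G17245 were lower at 60 than at 15 min in both genotypes (limma, adjusted p of 4.53e-05 to 0.00114), and AT3G07870 in lhy cca1 (adjusted p = 2.15e-04; WS 0.0946). AT5G42200, a weakly expressed RING gene with 24.9 at 60 min in lhy cca1 and 33.1 in WS, passed in neither genotype (adjusted p = 0.156 and 0.988).

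Transcription factor genes were another group. AT5G61590 is DEWAX, an AP2/ERF repressor of cuticular wax synthesis that is known to be induced in darkness. In lhy cca1 DEWAX read 482 and 351 before dawn, 170.2 and 157 at 15 min, 40.4 and 55.4 at 30 min, then 50.1 and 49.2 at 60 min. WS signals were 261 and 211, 81.5 and 80.6, 28.6 and 27.6, then 23.9 and 20.1. Most of the fall was over by 30 min, and the WS level at 60 min was close to the 40th percentile of the array. AT5G61590 stood 8.29-fold below its level before dawn in lhy cca1 at 60 min and 10.7-fold below it in WS. Against 15 min it was lower by limma in lhy cca1 (log2 -1.72 ± 0.190, adjusted p = 2.22e-05) and in WS (-1.89 ± 0.190, adjusted p = 9.82e-06).

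AT1G25550 encodes a MYB-like factor of the HHO/NIGT1 family, whose members repress nitrate uptake genes. It read 275 and 341, 224 and 256, 109 and 115, then 109 and 109 in lhy cca1, and 217 and 233, 173 and 175, 88.5 and 84.0, then 71.8 and 55.4 in WS. Levels at 30 and 60 min met in lhy cca1, while in WS the 60 min arrays lay below those at 30 min. AT1G25550 was lower at 60 than at 15 min by limma in lhy cca1 (log2 -1.13 ± 0.153, adjusted p = 1.37e-04) and in WS (-1.47 ± 0.153, adjusted p = 1.32e-05). bHLH121, a regulator of iron homeostasis, averaged 179, 137, 71.3 and 53.8 in lhy cca1 and 138, 103, 60.1 and 49.7 in WS. GT2, a trihelix DNA-binding factor, averaged 104 before dawn and 36.5 at 60 min in lhy cca1, and 79.9 and 28.5 in WS. The MYB-like gene AT5G08520 averaged 230.1, 211, 103 and 68.4 in lhy cca1 and 154, 139.6, 56.8 and 44.3 in WS. All of bHLH121, GT2 and AT5G08520 were lower at 60 than at 15 min in both genotypes (limma, adjusted p of 2.63e-05 to 0.00113).

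The bHLH gene AT4G01460 and the GRAS gene AT3G46600 also passed in both genotypes, at adjusted p of 7.56e-04 to 0.0412. AT5G07580, an ethylene response factor gene, did not: it averaged 65.2 at 60 min, against 89.8 at 15 min, in lhy cca1 (adjusted p = 0.103), and 66.8 at 60 min, against 86.3 at 15 min, in WS (adjusted p = 0.215). Of 21 ethylene genes listed, 2 were tested, and the member AT5G61590 was lower in both genotypes. EIN3, the central transcription factor of ethylene signalling, was the other, with log2 changes of 0.05 ± 0.130 in lhy cca1 and 0.02 ± 0.130 in WS.

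Enzymes and cell wall proteins made up the next group. EXO encodes an extracellular protein that responds to brassinosteroid and promotes cell expansion. It read 290.0 and 351, 242 and 267, 116 and 164, then 81.1 and 95.8 in lhy cca1, and 329 and 393, 307 and 282, 121 and 127, then 140.4 and 119.8 in WS. WS thus held its 30 min level to 60 min, while in lhy cca1 the 60 min arrays lay below the 30 min arrays. EXO was lower at 60 than at 15 min by limma in lhy cca1 (log2 -1.53 ± 0.172, adjusted p = 2.61e-05) and in WS (-1.18 ± 0.172, adjusted p = 2.59e-04).

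EXO was the only member among 9 tested genes of the wall-loosening list. Of the 9, 3 were lower in each genotype: EXO, the expansin gene EXPA8 and the xyloglucan transglucosylase gene XTH16. EXPA8 had means of 569 at 30 min in lhy cca1, against 737 before dawn, and of 553 in WS, against 603. It was lower at 60 than at 15 min by -0.93 ± 0.174 in lhy cca1 and -1.07 ± 0.174 in WS (adjusted p = 0.00234 and 7.52e-04). XTH32 was higher in both genotypes, by 1.55 ± 0.138 in lhy cca1 and 1.26 ± 0.138 in WS, and EXPB1 in lhy cca1 alone, by 0.82 ± 0.186 (adjusted p = 0.0102; WS 0.0510). The list's median change was -0.55 in lhy cca1 and -0.43 in WS.

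AT5G19120, which encodes an aspartyl protease family protein, read 630.0 and 659, 479.7 and 494, 166 and 154, then 69.3 and 96.2 in lhy cca1. Those of WS were 384 and 565, 370.2 and 436, 107 and 113, then 106 and 91.4. WS arrays at 15 min overlapped those before dawn, and the 30 min arrays lay far below both. AT5G19120 was lower at 60 than at 15 min by limma in lhy cca1 (log2 -2.58 ± 0.181, adjusted p = 3.40e-07) and in WS (-2.03 ± 0.181, adjusted p = 4.04e-06).

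AT5G44680, a DNA glycosylase family gene, had hardly moved by 15 min in lhy cca1. It read 685 and 654, 669.8 and 654, 330.1 and 390.1, then 190.1 and 154 in lhy cca1. In WS it read 556 and 517, 468 and 441, 242 and 212, then 98.5 and 109. Its lhy cca1 levels at 15 min and before dawn overlapped, and in each genotype the 60 min arrays lay below the 30 min arrays. AT5G44680 was lower at 60 than at 15 min by limma in lhy cca1 (log2 -1.95 ± 0.137, adjusted p = 3.40e-07) and in WS (-2.13 ± 0.137, adjusted p = 1.39e-07). The glycosyl hydrolase gene AT2G27500, the O-fucosyltransferase family gene AT2G44500 and the acyltransferase gene AT5G39080 were lower at 60 than 15 min in both genotypes. So was the aspartyl protease gene AT3G59080, and limma gave these genes adjusted p of 2.52e-04 to 0.0270. AT3G59080 was below the 40th percentile on all 60 min arrays, at least 2.23-fold lower than at 15 min in lhy cca1 and 2.17-fold in WS.

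**Figure D4:**
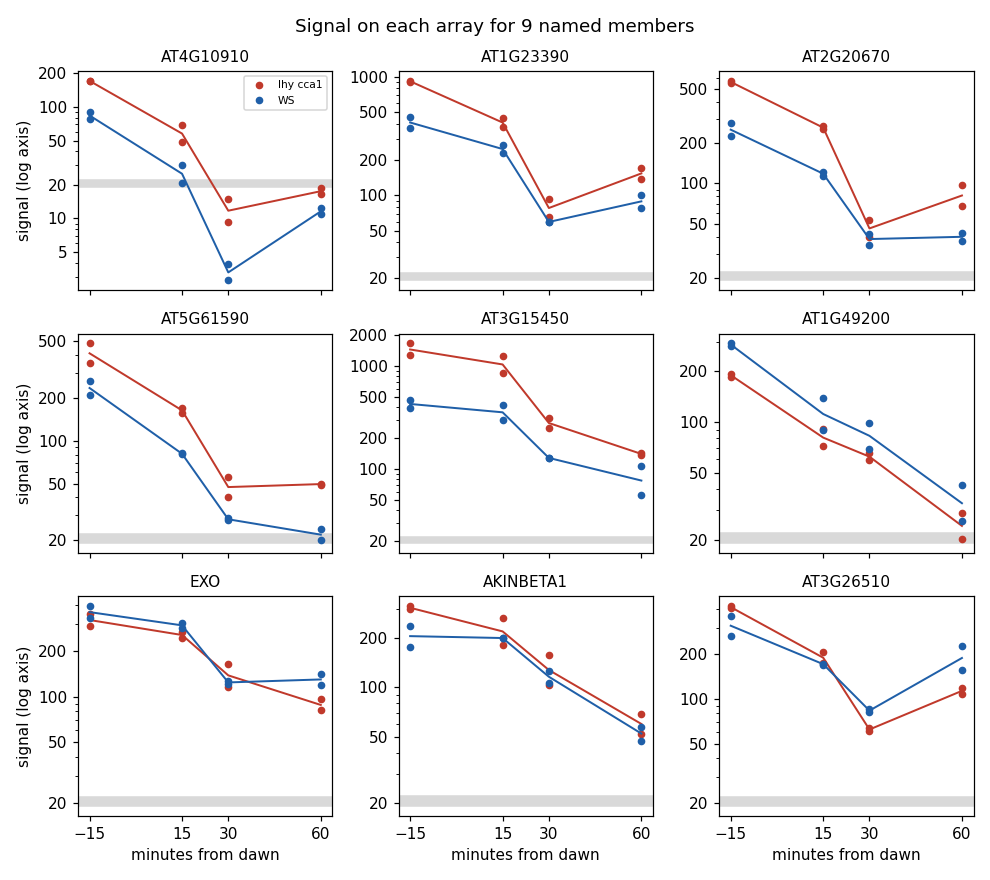
Signal (log axis) against minutes from dawn for 9 named members, with 1 point per array and lines through the geometric means of lhy cca1 (red) and WS (blue); the grey band is the arrays' 40th percentile (19.1 to 22.0). AT1G23390 and AT3G26510 turn upward after 30 min, AT3G15450, AT1G49200 and AKINBETA1 go on down, and AT5G61590 in WS ends at the band.

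AT4G10910, a gene of unknown function, fell below the range of reliable signal. In lhy cca1 it read 171 and 172 before dawn, 48.5 and 68.8 at 15 min, 9.31 and 14.8 at 30 min, then 16.5 and 18.7 at 60 min. The WS arrays gave 78.1 and 90.1, 21.0 and 30.2, 2.78 and 3.87, then 12.3 and 10.9. From 30 min on it was below the 40th percentile on all arrays, so its fall by 30 min was at least 8.13-fold in lhy cca1 and at least 4.32-fold in WS. Against 15 min, the lhy cca1 level at 60 min was at least 2.76-fold lower and the WS level at least 1.28-fold (limma, adjusted p = 0.00139 and 0.0319). The WS call was lost without replicate 2 of WS at 15 min (adjusted p = 0.279), either WS array at 60 min (0.0604 and 0.110) or either lhy cca1 array before dawn (0.0507 and 0.0504). Its next protein-coding neighbour, AT4G10925, is also a member, with 109, 106, 60.5 and 53.1 in lhy cca1 and 122, 102, 61.6 and 65.0 in WS.

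AT3G06070, also of unknown function, read 162 and 162, 83.6 and 102, 22.2 and 36.0, then 17.0 and 21.4 in lhy cca1. WS signals were 111 and 99.3, 48.9 and 58.3, 14.9 and 20.8, then 19.4 and 22.9. It lay on either side of the 40th percentile from 30 min on in WS and at 60 min in lhy cca1. AT3G06070 was lower at 60 than at 15 min in lhy cca1 (log2 -2.28 ± 0.243, adjusted p = 1.61e-05) and in WS (-1.34 ± 0.243, adjusted p = 0.00195).

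AT1G54740 averaged 334, 193, 81.5 and 43.4 in lhy cca1 and 145, 107, 58.1 and 51.0 in WS. It was lower at 60 than at 15 min in lhy cca1 (log2 -2.10 ± 0.244, adjusted p = 3.39e-05) and in WS (-1.07 ± 0.244, adjusted p = 0.0116), in WS not without replicate 2 at 15 min (0.131). AT1G49500, among the most abundant members, averaged 1364, 1088, 497 and 476 in lhy cca1 and 1153, 729, 396 and 395 in WS. Its level was flat after 30 min, and it passed against 15 min in both genotypes (adjusted p = 2.84e-04 in lhy cca1 and 0.00356 in WS).

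AT4G04630, a gene of the DUF584 (S40-like) family, differed from these in that its signal before dawn was only just above the floor, at 51.9 and 47.4 in lhy cca1 and 44.3 and 50.4 in WS. At 15 min it read 27.1 and 48.7 in lhy cca1 and 46.8 and 49.3 in WS, at 30 min 17.5 and 25.8 in lhy cca1 and 23.5 and 29.6 in WS, and at 60 min 4.96 and 14.6 in lhy cca1 and 1.66 and 16.2 in WS. All 60 min arrays were below the 40th percentile. At 60 min AT4G04630 was at least 2.45-fold lower than at 15 min in WS (limma, adjusted p = 0.00861). In lhy cca1 the bound was 1.73-fold and the test was not passed (adjusted p = 0.0910). The WS call was lost without either WS array at 15 min (0.0573 and 0.0660) or replicate 1 of WS at 60 min (0.0680).

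AT5G25280 and AT5G11070 already lay at least 0.8 log2 units below their level before dawn at 15 min in both genotypes. AT5G25280 read 395 and 362, 126 and 150.1, 76.1 and 62.5, then 82.3 and 61.9 in lhy cca1, and 283 and 322, 131 and 131, 44.7 and 58.0, then 101 and 54.8 in WS. Its 60 min level passed against 15 min in lhy cca1 (log2 -0.94 ± 0.233, adjusted p = 0.0185) and in WS (-0.82 ± 0.233, adjusted p = 0.0430). The call in WS was lost on leaving out either WS array before dawn or at 15 min, replicate 2 of WS at 60 min, or either lhy cca1 array before dawn or at 15 min (adjusted p of 0.0533 to 0.355). The call in lhy cca1 was lost without either of its 15 min arrays (0.0508 and 0.192) or replicate 2 of its 60 min arrays (0.163). AT5G11070 averaged 289, 165, 84.5 and 89.5 in lhy cca1 and 359.5, 201, 123 and 125 in WS. It passed in lhy cca1 (-0.88 ± 0.190, adjusted p = 0.00707), not without replicate 1 at 60 min (0.0879) or replicate 2 at 15 min (0.109). It passed in WS (-0.71 ± 0.190, adjusted p = 0.0307), not without either 15 min array (0.175 and 0.111) or replicate 2 at 60 min (0.244).

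A further 25 members passed the test of 60 against 15 min in neither genotype. AT2G27830 averaged 188, 93.5, 60.4 and 73.8 in lhy cca1 and 199.8, 88.5, 65.5 and 95.5 in WS, with changes from 15 to 60 min of -0.34 ± 0.258 and 0.03 ± 0.258. AT1G26920 averaged 525, 348, 234 and 314 in lhy cca1 and 384, 224, 134 and 164 in WS, with changes of -0.14 ± 0.156 and -0.45 ± 0.156. The abundant AT3G56360 averaged 1019, 590.4, 443 and 585 in lhy cca1 and 791, 409, 389 and 557 in WS. AT5G60680, another DUF584 gene, averaged 376, 190.4, 138 and 234 in lhy cca1 and 282, 158, 111 and 156 in WS. AT3G07350, a DUF506 gene like AT2G20670, averaged 138, 61.7, 54.0 and 68.2 in lhy cca1 and 124, 53.0, 49.7 and 76.0 in WS. The genes named above in this paragraph share a low point at 30 min in both genotypes and a mean at 60 min above it. The 30 min arrays took part in the choice of members, which favours such a low point. It does not hold for all 25. From 30 to 60 min AT3G52480 went from 28.3 to 20.6 in lhy cca1 and from 28.6 to 25.7 in WS. AT2G46490 went from 67.9 to 61.4 in lhy cca1 and from 65.0 to 62.3 in WS.

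Among the 49 members without a listed gene, 260287_at had the largest mean log2 fall by 30 min, and 252367_at ended far below its level before dawn. These and 260431_at were singled out after their values were seen. In lhy cca1 260287_at read 621 and 497, 358 and 305, 67.2 and 67.8, then 77.0 and 91.9, and in WS 270.1 and 358, 146 and 161, 24.2 and 37.3, then 47.7 and 23.8. It was lower at 60 than at 15 min by limma in lhy cca1 (log2 -1.97 ± 0.265, adjusted p = 1.27e-04) and in WS (-2.18 ± 0.265, adjusted p = 4.69e-05). The probe set 252367_at read 388 and 406, 152 and 309, 46.9 and 62.8, then 24.2 and 32.4 in lhy cca1, and 274 and 427, 214 and 227, 35.0 and 43.4, then 14.1 and 8.59 in WS. Its WS arrays at 60 min were below the 40th percentile, at least 17.4-fold below the level before dawn. For 260431_at both genotypes were below the percentile at 60 min, at least 4.28-fold below before dawn in lhy cca1 and at least 3.55-fold in WS.

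Genotype differences among the members ran mostly one way. Members tended to stand higher in lhy cca1 than in WS at all times, with a median log2 difference of 0.32 before dawn, 0.27 at 15 min, 0.31 at 30 min and 0.16 at 60 min. The differences before dawn and at 30 min are descriptions, since those arrays chose the members. At 60 min limma called 16 members higher in lhy cca1 and 2 lower, or 15.1% and 1.89% of members, against 2.39% higher and 1.01% lower among all probe sets tested. The median over all tested was 0.03. The total of 18 was 6 without replicate 2 of lhy cca1 at 60 min and 4 without the 4 replicate 2 arrays of lhy cca1, which are the arrays of high 25S rRNA signal. With that signal as a covariate it was 19.

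At 15 min 10 members were called higher in lhy cca1 and none lower (9.43%, against 1.14% higher and 0.585% lower among all tested; 40 members and 2163 of all tested had an unadjusted limma p under 0.05 in either direction). That count rested on single arrays. It was 0 without replicate 2 of lhy cca1 at 15 min, 4 without replicate 1, 1 without replicate 1 of WS at 15 min and 4 without replicate 2, and 19 without either WS array at 60 min. With the 25S rRNA signal as a covariate it was 1.

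AT5G61590 was the named member with the smallest adjusted p at 60 min. Its lhy cca1 arrays (50.1 and 49.2) lay above the WS arrays (23.9 and 20.1), a log2 difference of 1.18 ± 0.190 by limma (adjusted p = 0.00260). At 15 min the arrays were 170.2 and 157 in lhy cca1 and 81.5 and 80.6 in WS (1.01 ± 0.190, adjusted p = 0.0131). The 15 min call of AT5G61590 was lost on leaving out any 1 of those 4 arrays (adjusted p of 0.0833 to 0.117), and was 0.151 with the 25S rRNA covariate. AT2G20670 was higher in lhy cca1 at 60 min (1.02 ± 0.191, adjusted p = 0.00795; 0.111 without replicate 2 of lhy cca1 at 60 min). At 15 min AT2G20670 was higher too (1.13 ± 0.191, adjusted p = 0.00594), but not without replicate 1 of WS (0.0835) or replicate 2 of lhy cca1 at that time (0.103).

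AT1G26920 was higher in lhy cca1 at 60 min (320.3 and 308, against 152 and 177 in WS; 0.94 ± 0.156, adjusted p = 0.00327). AT5G44680 was higher as well (0.72 ± 0.137, adjusted p = 0.00804; 0.0572 without replicate 1 of lhy cca1 at 60 min). AT1G25550 was higher by 0.79 ± 0.153 (adjusted p = 0.00866), lost without replicate 2 of WS (0.0617) or of lhy cca1 (0.0660) at 60 min. AT1G74940 read 63.7 and 75.9 in lhy cca1 and 35.0 and 28.9 in WS at 60 min (1.13 ± 0.242, adjusted p = 0.0169), lost without replicate 2 of either genotype (0.0753 without that of WS and 0.145 without that of lhy cca1). AT1G23390 was higher by 0.78 ± 0.185 (adjusted p = 0.0280), lost without replicate 2 of WS (0.135) or of lhy cca1 (0.231). At 15 min AT3G15450 was higher in lhy cca1 by 1.54 ± 0.250 (adjusted p = 0.00492), lost without replicate 1 of WS (0.0946) or replicate 2 of lhy cca1 (0.114) at that time and with the 25S rRNA covariate (0.134).

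The 2 members lower in lhy cca1 at 60 min were AT3G26510 and 250007_at. AT3G26510 encodes a PB1-domain protein. It read 406 and 417 before dawn, 205 and 173 at 15 min, 63.9 and 60.5 at 30 min, then 118 and 108 at 60 min in lhy cca1. Those of WS were 264 and 361, 169 and 172, 85.6 and 80.9, then 224 and 157. The lhy cca1 arrays thus lay above WS before dawn and below WS at 30 and 60 min. At 60 min the difference in AT3G26510 was -0.73 ± 0.175 (limma, adjusted p = 0.0312), lost without replicate 1 of WS (0.187) or either lhy cca1 array (0.0622 and 0.181) at that time. In lhy cca1 it was lower at 60 than at 15 min (-0.74 ± 0.175, adjusted p = 0.0144), lost without replicate 1 at 15 min (0.156) or either array at 60 min (0.0520 and 0.0936). The WS change was 0.14 ± 0.175, and the interaction did not pass (adjusted p = 0.945). The probe set 250007_at read 108 and 99.9 in lhy cca1 at 60 min and 202 and 309 in WS (-1.27 ± 0.210, adjusted p = 0.00317).

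The largest genotype difference at 60 min was that of 259751_at, chosen here after its values were seen. It read 289 and 289.6, 165 and 181, 76.2 and 137, then 181 and 283 in lhy cca1. In WS it read 33.8 and 51.9, 38.0 and 45.8, 18.3 and 12.0, then 46.7 and 31.5. At each time both lhy cca1 arrays lay above both WS arrays, by 2.56 ± 0.297 at 60 min (limma, adjusted p = 1.34e-04) and 2.05 ± 0.297 at 15 min (adjusted p = 0.00214). By 60 min 259751_at had returned to within 0.5 of its level before dawn in each genotype. In WS its mean before dawn was only 42.8, and both 30 min arrays were below the 40th percentile. The WS fall by 30 min was thus at least 2.16-fold.

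**Figure D5:**
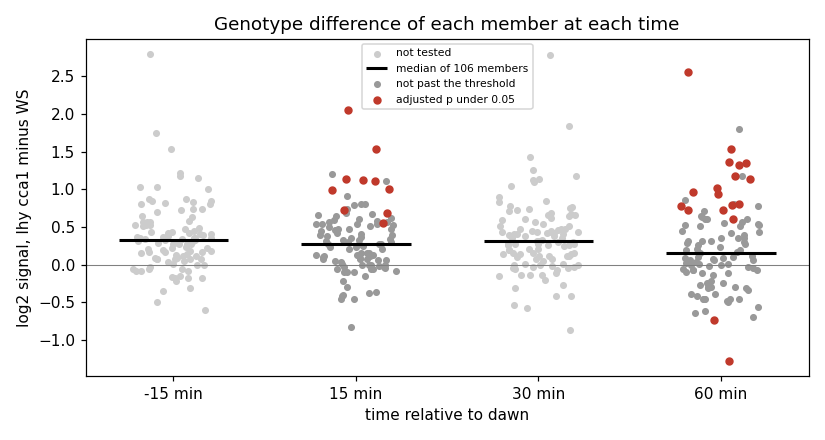
Log2 signal of lhy cca1 minus WS (vertical axis) for each of the 106 members at each time relative to dawn, with the median as a bar and, at 15 and 60 min, members of adjusted p under 0.05 in red. The medians are 0.32, 0.27, 0.31 and 0.16 from before dawn to 60 min, and the 18 red points at 60 min are 16 above and 2 below 0.

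The change from 15 to 60 min was not shown to differ between genotypes for any member. Limma called 0 of 106 in the interaction of genotype and time, as it called 0% of all probe sets tested. At an unadjusted p under 0.05 there were 15 members and 630 of all tested.

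The other gene lists held no member. Among 4 tested shade and auxin response genes, WES1 was lower at 60 than at 15 min in WS (-0.66 ± 0.167, adjusted p = 0.0224; lhy cca1 0.204). Both tested genes of the evening clock and flowering list were higher at 60 than at 15 min in lhy cca1. GI, the evening-phased regulator of clock and flowering, had a mean of 383 at 60 min in lhy cca1, against 14.2 at 15 min (adjusted p = 3.60e-06), and of 86.3 in WS, against 7.94 (adjusted p = 5.95e-05). Its 15 min arrays were all below the 40th percentile, so those means are not reliable levels. AT5G52660, a MYB-like gene, was higher at 60 than at 15 min in lhy cca1 (1.02 ± 0.224, adjusted p = 0.00830; WS 0.0645). None of the 2 tested starch breakdown genes, the 4 gibberellin genes or the 1 type-A response regulator passed in either genotype by limma, and no abscisic acid gene of the list was tested.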

How the data were processed

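Total RNA was measured on 16 arrays in 8 groups of 2. What was deposited is linear intensity, made with MAS5 and GCOS per the submitters' processing notes, versions not given in the sources used here. Of 22810 probe sets, 64 controls (0.281%) were left out. Values were taken as log2 of the deposited intensity with no offset, and differences are log2. A probe set was tested if above its array's 40th percentile on at least 2 arrays (14878). All 106 members passed, through their level before dawn. Means of the 8 groups were fitted with limma 3.58.1 (R 4.3.3) and an intensity trend (8 residual degrees of freedom, 2-sided). Benjamini-Hochberg adjustment ran over all tested probe sets, with 0.05 as threshold, and ± is the standard error of the fit. Where a group was below the percentile on both arrays, a fold is a lower bound ("at least"). The fit was tested on simulated data.

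Members and lists were chosen with earlier results of these data known. Named genes were the 15 largest falls, up to 6 by change from 15 to 60 min, up to 6 by each genotype test, all list members, and 3 probe sets at each side of the thresholds; others illustrate role groups and were chosen after values were seen. Gene names came from the array's annotation (13513 probe sets with 1 gene, 503 with several, 8730 with none), symbols and synonyms from a TAIR10.1 gene table, in which all 57 named members matched. It holds no descriptions, so counts by keyword were not made. Deviations of same-numbered replicates correlated at -0.0163 to 0.269 between groups, so the numbers were not taken as pairs. Alternatives covered offset, normalization, filter, trend, arrays fitted, an rRNA covariate, the replicate block and each array left out. The number of arrays limits the precision.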

Additional observations from a re-analysis of the deposited data

How the results depend on the processing

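With 2 arrays per group and 8 residual degrees of freedom, many genotype calls of named members at 60 and 15 min were lost on leaving out 1 array, though not those of AT5G61590 and AT1G26920 at 60 min, and signals under the 40th percentile give bounds only. Leaving out each array in turn, the members lower at 60 than at 15 min numbered 57 to 79 in lhy cca1 (77 with all arrays) and 48 to 71 in WS (70). Without the 4 replicate 2 arrays of lhy cca1 the first count was 45. The members differing between genotypes at 60 min numbered 6 to 19 with single arrays left out (18 with all), and 4 without those 4 arrays. At 15 min the count of 10 was 0 to 19 with single arrays left out, 18 on log2(value + 16), 4 without an intensity trend, 5 on the 8 arrays at 15 and 60 min alone, 1 with the 25S rRNA covariate and 1 without the 4 arrays. With replicate number as a block it was 19, and the block moved no other count by over 1.5 times. The interaction gave 0 throughout. With a fall threshold of -1.0, 69 probe sets were members. The causes of these shifts were not tested. Fits with arrays left out also had fewer arrays. Of calls on named genes, none reversed; 48 of those with single arrays left out no longer passed and 688 still did, and 33 under the other alternatives no longer passed and 427 still did. The AT5G25280 call in WS was among the 33, with adjusted p of 0.0696 after quantile normalization, 0.0655 after median centring, 0.0628 with no filter, 0.0931 without a trend, 0.101 on the 8 arrays at 15 and 60 min and 0.0752 with the 25S rRNA covariate.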

Other observations

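As an alternative chosen after seeing the data, the same rule was applied to each replicate alone and the falls then read on the arrays of the other. Chosen on the replicate 1 arrays, 119 probe sets met it, and 78 of them (65.5%) also fell by at least 0.8 in both genotypes on the replicate 2 arrays. Among all probe sets with a signal of 40 or more before dawn on the replicate 1 arrays, 104 of 10491 did so (0.991%). Chosen on the replicate 2 arrays, 114 met it, and 83 (72.8%) fell as far on the replicate 1 arrays, against 125 of 10435 (1.20%). On the arrays of the other replicate the median falls were -1.16 in lhy cca1 and -1.23 in WS for the first set. They were -1.33 in lhy cca1 and -1.17 in WS for the second. All these arrays took part in the choice of the 106 members, so these values are a description without a test.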
